A study of Mus musculus with 40 samples.

Results

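The comparison is between a high-fat diet with 20 μg of the plant-based formulation Kal-1 (HF20) and the same high-fat diet without it (HFC), in stromal vascular cells of mouse subcutaneous fat. Its members are the HFC and HF20 arrays of weeks 3, 6, 9, 12 and 15, counted from day 14 on the diet, taken from the sample labels and paired by week, which gives 10 of the 40 arrays in the series. Week 18 was left out because the labels of its HF20 array conflict.

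The study fed C57BL/6J mice, weaned at 3 to 4 weeks of age, a normal diet or a high-fat, high-sucrose diet with or without Kal-1, in groups of 30 animals, and the arrays used are 3 weeks apart. HFC and HF20 mice alike had 60% of their calories from fat and extra sucrose, and HF20 differed only by the 20 μg of Kal-1, an aqueous formulation whose basis for the dose (per day, per animal or per weight) the labels do not give. Arrays of the high-fat diet with 5 μg (HF5) and 75 μg (HF75) of Kal-1 at the same 5 weeks were used for comparison, and the normal diet has 10% of calories from fat. Each diet has 1 array per week, so the 5 weeks stand in for replicates, and the labels give neither the number of mice behind an array nor their sex. The titles of the HFC, HF20, HF5 and normal diet arrays of week 9 hold an extra tag, WS, that the labels do not explain. The HF75 array of week 9 lacks it.

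White fat is a tissue of lipid-filled adipocytes held in a mesh of collagen and other matrix proteins. When the fat is digested the adipocytes float off, and the cells that sink, the stromal vascular cells, are mostly fibroblasts and adipocyte progenitors, endothelial cells, macrophages and lymphocytes. On a high-fat diet subcutaneous fat gains macrophages and matrix, and chemokines such as Ccl2 draw monocytes into it.

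RNA was labelled in 1 colour on Agilent arrays with 40628 probes for 29147 named genes. A level here is the log2 intensity of a gene's brightest tested probe less the log2 of the array's 75th percentile, so that 0 is the 75th percentile and a difference of 1 is 2-fold, and values are listed in the order of weeks 3, 6, 9, 12 and 15. The 75th percentile was 778, 810, 1623, 713 and 1113 intensity units on the HFC arrays and 748, 1793, 1441, 1026 and 1126 on the HF20 arrays. Between 66.9% and 87.2% of the probes were well above background on these 10 arrays, with the highest share on HF20 at week 9. A difference is HF20 less HFC at the same week, ± is the standard error of the mean difference from limma over 5 pairs, and the number of arrays limits the precision.

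All 14 macrophage, 13 fibroblast, and 12 endothelial genes of the marker lists were well above background on all 10 arrays. So were all 12 adipocyte genes, whose mean level was 2.004, 0.61, 4.91, 2.79 and 1.32 on the HFC arrays and 2.36, 1.09, 5.18, 5.67 and 5.30 on the HF20 arrays. Adipocyte RNA was therefore high on both arrays of week 9 and on the HF20 arrays of weeks 12 and 15, and low at week 6 in both diets and on the HFC array of week 15. Levels of different probes cannot be ranked, so this list was not set against the fibroblast list. The label is stromal vascular cells, a fraction that adipocytes should have left. The share of adipocytes behind the 12 adipocyte genes was not measured. Fabp4, a fatty acid carrier and the brightest of these genes, was saturated on all 10 arrays. Mean levels of the 10 lymph node genes were 2.15, -1.88, -4.02, -1.74 and 1.43 on the HFC arrays and 1.95, -3.40, -3.07, -3.91 and -3.10 on the HF20 arrays, high for both diets at week 3 and for HFC alone at week 15. For the 14 skeletal muscle genes they were 1.06, -1.26, -3.79, 4.93 and 0.91 with HFC and 1.73, -0.18, -1.87, -2.38 and 4.06 with HF20, so muscle RNA was high in HFC at week 12 and in HF20 at week 15. Ddx3y, a Y-linked gene, was well above background on all 10 arrays, with a mean difference of -0.16 ± 0.20 (a gene chosen after its values were seen).

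With 20 μg of Kal-1, the fibroblast markers of the stromal cells had lower median levels than with the high-fat diet alone in each of the 5 weeks. Their median difference was -0.79, or -0.31 relative to the median of all genes when the background is corrected by normexp. In all 5 weeks 7 of the 13 were lower, beside 4.43% of all genes tested. Among the 7 was the progenitor receptor gene Pdgfra at -0.79 ± 0.20 (n = 5 pairs). The gene for renin, Ren1, was 38.1-fold lower on average (with HF20 at week 3 not well above background), the hexosamine pathway gene Gfpt2 3.79-fold and the protease inhibitor gene Slpi 4.9-fold (with 1 HFC array saturated), each at least 2-fold lower in all 5 weeks. Inflammatory cytokine, chemokine and immediate-early genes were far lower in weeks 12 and 15, the same weeks in which adipocyte genes were far higher. No single probe passed the test across all probes.

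In limma, 0 of 30831 probes (0%) had an adjusted p under 0.05, with a smallest adjusted p of 0.406. At an unadjusted p under 0.05 there were 3649 probes (11.8%), and the methods' t-test also gave 0 after adjustment and 1808 unadjusted. Every difference given between HF20 and HFC is therefore a value that did not pass. Weeks differed in how far the diets were apart, since 11.3%, 28.2%, 23.9%, 43.6% and 44.2% of the genes differed by 2-fold or more at weeks 3, 6, 9, 12 and 15. Over all 21943 genes tested the median difference was 0.08, with weekly medians of -0.05, -0.03, 0.22, 0.16 and 0.12. Genes with a lower mean on HF20 made up 44.1% and those with a higher mean 55.9%. Genes lower in all 5 weeks made up 4.43% and genes higher in all 5 weeks 7.45%. Genes whose 5 HF20 levels all lay under the 5 HFC levels made up 0.187%, and genes whose HF20 levels all lay over them 0.402%.

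At least 2-fold in the same direction in all 5 weeks were 13 of the 19115 genes well above background on 1 or more arrays of every pair (0.0680%), of which 9 were lower on HF20. Ren1, the gene for the protease that makes angiotensin I from angiotensinogen, lies on chromosome 1, 133350674 to 133360320 in GRCm38.p6. Its level was 0.33, 2.76, -3.39, 0.999 and 1.34 on the HFC arrays and -6.53, -0.40, -5.75, -5.93 and -5.62 on the HF20 arrays. It was high with HFC in every week but week 9, and on HF20 only the week 6 array came near that range, so the groups overlap through HFC at week 9. The mean difference of Ren1 was -5.25 ± 0.83, and its probe was not well above background on HF20 at week 3. Ren2, a near-identical renin gene that this strain is known to lack, was at -0.0021, 2.12, -3.64, 0.13 and 0.92 with HFC and at -7.52, -1.15, -5.54, -6.16 and -6.08 with HF20. Its values follow those of Ren1 week by week, and the probes of these copies may read the same RNA. Without week 3, 6, 9, 12 or 15 the count of 13 becomes 223, 44, 70, 54 or 19, and it is 6 under normexp background correction and 6 where both arrays of every pair had to be well above background.

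Slpi encodes a secreted inhibitor of neutrophil proteases and lies on chromosome 2, 164354070 to 164356507. On the HFC arrays its level was 5.68, 4.75, 1.59, 2.11 and 5.80, with week 15 saturated, and on the HF20 arrays 3.39, 3.40, -1.11, 0.69 and 2.10. Both diets were lowest at week 9 and next lowest at week 12, HF20 was below HFC each time, and the groups overlap across weeks. The mean difference was -2.29 ± 0.39. Gfpt2, on chromosome 11, 49794155 to 49838620, encodes the first enzyme of the hexosamine pathway, which turns a share of the cell's glucose into sugars for glycoproteins. Levels of Gfpt2 were -1.53, 1.93, 0.31, -0.0029 and 0.76 with HFC and -2.94, 0.05, -1.95, -1.46 and -1.86 with HF20, a mean difference of -1.92 ± 0.26. It had the smallest unadjusted p of the genes lower in all 5 weeks, and the groups overlap only through HFC at week 3 and HF20 at week 6.

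Erdr1, a gene of the X and Y pairing region that was first described as a regulator of red cell differentiation, lies on chromosome X, 170010526 to 170018797. Its level was 6.32, 6.01, 5.15, 6.33 and 5.76 with HFC, saturated on 1 array, and 4.47, 4.89, 3.92, 4.44 and 3.94 with HF20. Every HF20 array was under every HFC array, and the mean difference was -1.58 ± 0.23. The predicted gene LOC100044227 had levels of 6.07, 5.67, 4.75, 5.66 and 5.69 with HFC and 4.195, 4.45, 3.70, 4.21 and 3.59 with HF20 and did not overlap between the diets either. Both are among the 13, and their probes could not be told apart by sequence and may read the same RNA. A further predicted gene, LOC100046250, was at 2.51, 2.41, -2.14, -1.86 and 0.91 with HFC and -0.47, -2.25, -3.15, -3.94 and -2.88 with HF20, lower on HF20 each week with the groups overlapping.

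The other genes at least 2-fold lower in all 5 weeks belong to lymphocytes. Klrc3, a receptor of natural killer cells, was at -2.55, -2.53, -4.98, -3.06 and -3.86 with HFC and at -3.996, -6.51, -7.21, -7.85 and -7.57 with HF20, where only the week 3 array was well above background. Its close relative Klrc2, which was lower in all 5 weeks but not 2-fold at week 9, stood at -0.44, -0.42, -3.50, -2.30 and -1.52 with HFC and -1.68, -3.97, -4.46, -4.89 and -4.17 with HF20. HF20 at week 3 was high for both genes beside the later HF20 arrays, and the groups overlap. Igkv3-12, an immunoglobulin light chain gene, had levels of 0.61, -1.55, -2.51, -0.87 and 0.27 with HFC and -0.78, -2.92, -3.84, -3.64 and -4.12 with HF20, and its gap was widest at week 15.

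On the other side, 4 genes were at least 2-fold higher on HF20 in all 5 weeks, all of them dim with HFC. Plekhg6 was at -6.50, -3.39, -3.26, -5.36 and -5.45 with HFC and -4.88, -2.35, -1.63, -3.30 and -2.20 with HF20. Its HF20 level was above the HFC level of the same week each time, while HF20 at weeks 3 and 12 lay within the HFC range. Cstdc2, a member of the cystatin family, was well above background on 1 of 5 HFC arrays and on all 5 HF20 arrays. Its mean difference was at least 2.87, since the 4 other HFC values were set to the lowest value that passed on their array. Tspan1, a membrane protein of the tetraspanin family, and Styxl1, a phosphatase relative without its catalytic activity, were well above background on 2 of 5 HFC arrays each, and their differences of 1.75 ± 0.27 and 1.82 ± 0.26 turn to -0.26 and -0.31, relative to the median of all genes, when the background is corrected by normexp. That correction moves the median of all genes to -0.32, and values under it are given relative to this median.

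**Figure D1:**
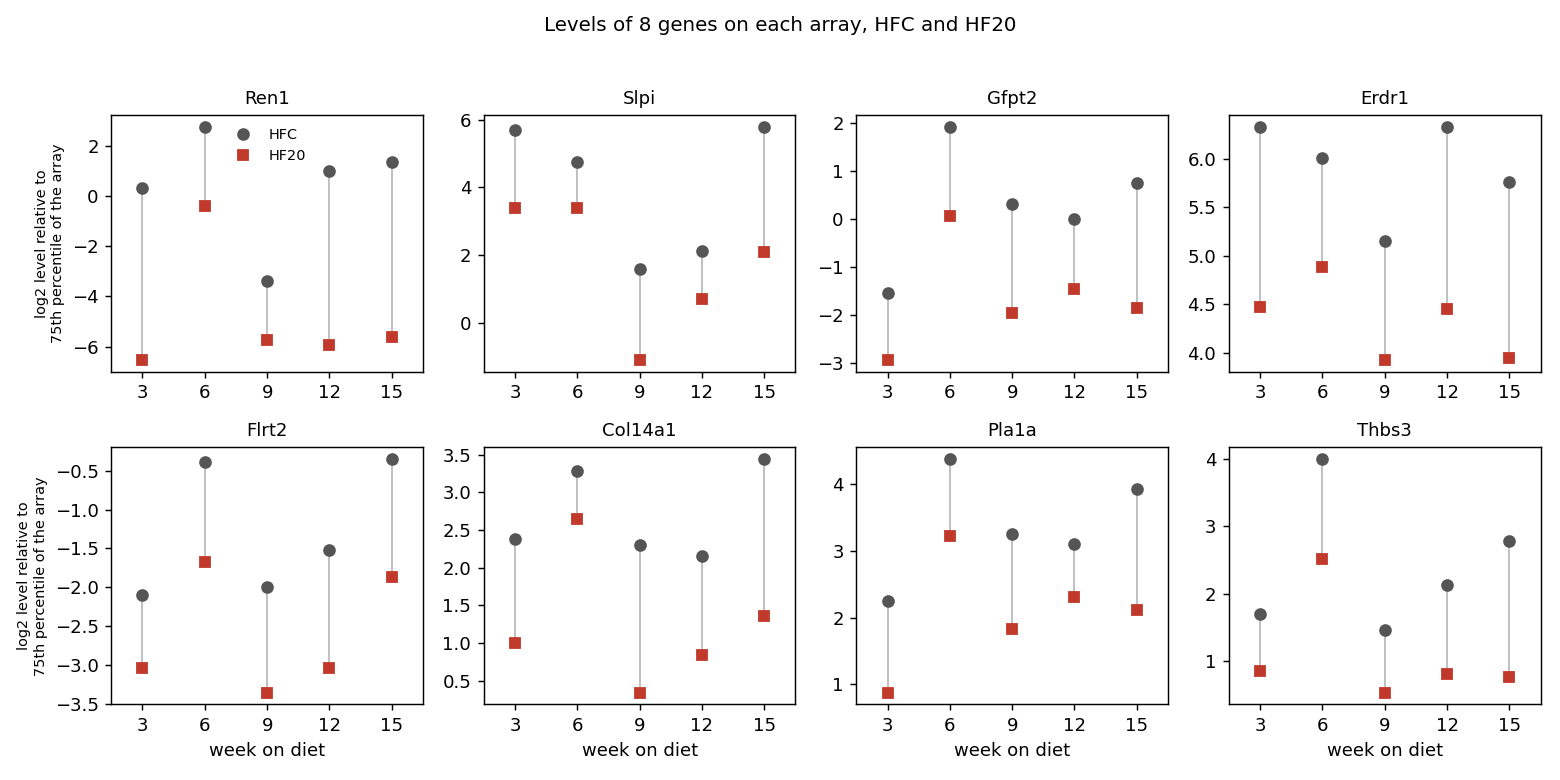
Log2 level relative to the array's 75th percentile (vertical axis) at weeks 3 to 15 (horizontal axis) of 8 genes that were lower on HF20 in all 5 weeks, with 1 point per array for HFC and HF20. Erdr1 is the gene of these 8 in which every HF20 array lies under every HFC array; its mean difference is -1.58.

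Further genes were named for the smallest unadjusted p among those lower in all 5 weeks. Flrt2, a leucine-rich adhesion protein that binds the Unc5 guidance receptors, was at -2.10, -0.39, -1.998, -1.52 and -0.35 with HFC and -3.04, -1.67, -3.36, -3.04 and -1.87 with HF20. Its difference was nearly even over the weeks, -0.94, -1.28, -1.36, -1.53 and -1.53, with a mean of -1.33 ± 0.21. Col14a1 encodes a collagen that sits on the surface of type I collagen fibrils, and it had levels of 2.37, 3.28, 2.29, 2.15 and 3.44 with HFC and 1.001, 2.65, 0.34, 0.84 and 1.36 with HF20, a mean of -1.47 ± 0.28. HF20 at week 6 was the only HF20 array inside the HFC range for Col14a1.

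Thbs3, a thrombospondin of the matrix, was at 1.71, 4.002, 1.47, 2.13 and 2.79 on the HFC arrays and 0.85, 2.52, 0.54, 0.81 and 0.77 on the HF20 arrays. HF20 at week 6 stood far above its other weeks, as HFC did in the same week. Pla1a, a secreted phospholipase that cuts phosphatidylserine, had levels of 2.25, 4.37, 3.25, 3.10 and 3.92 with HFC and 0.88, 3.22, 1.83, 2.30 and 2.12 with HF20. For Pla1a week 3 was the lowest and week 6 the highest week of either diet. Adgrd1, an adhesion G protein-coupled receptor, and Pamr1, a secreted protein with protease-like domains, had mean differences of -1.17 ± 0.22 and -1.46 ± 0.28.

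Cenpa, the histone of centromeres and a gene of dividing cells, was at 0.18, -0.76, -2.65, -1.79 and -1.64 with HFC and -1.01, -2.66, -3.27, -3.42 and -3.46 with HF20. The level was highest at week 3 for both diets and the groups overlap. Ctse, an aspartic protease of immune and epithelial cells, differed by -1.15, -3.08, -2.10, -0.82 and -2.20 over the weeks, a mean of -1.87 ± 0.37. The rest of these 15 genes includes the predicted gene LOC100044302, whose HF20 levels all lay under its HFC levels.

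Of the 15 genes picked in the same way among those higher in all 5 weeks, most are dim and several are predicted transcripts. Lrrc3, a leucine-rich membrane protein, was at -3.45, -3.35, -2.52, -2.67 and -3.09 with HFC and -2.95, -1.94, -1.18, -1.38 and -1.65 with HF20, a mean difference of 1.20 ± 0.24. Week 3 showed the smallest gap of the 5 weeks, and HF20 at week 3 lay inside the HFC range. Fgfr2, a fibroblast growth factor receptor, differed by 0.50, 1.24, 0.78, 1.32 and 1.80, a mean of 1.13 ± 0.26. Tbc1d2, a regulator of Rab GTPases in membrane traffic, had levels of 0.13, -0.67, 1.46, 1.46 and 0.76 with HFC and 1.81, 0.84, 1.92, 2.09 and 1.99 with HF20, and Grhl1, an epithelial transcription factor, differed by 1.72 ± 0.41.

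Exd1, which takes part in small RNA production in germ cells, and Shd, an adaptor protein with an SH2 domain, differed by 1.92 ± 0.38 and 1.16 ± 0.27. Mc4r, the melanocortin receptor known from appetite control, was at -5.78, -5.22, -5.27, -4.86 and -4.94 with HFC and -5.50, -4.21, -3.53, -3.39 and -3.46 with HF20, and its difference of 1.20 ± 0.28 turns to -0.12 under normexp. All 10 arrays measured Mc4r well above background at these low levels, and only HF20 at week 3 lay in the HFC range.

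Markers of fibroblasts and adipocyte progenitors had a lower median on HF20 in each week. Of 13 genes, 12 had a lower mean on HF20 (background 44.1%), 7 were lower in all 5 weeks (background 4.43%) and 4 had every HF20 level under every HFC level (background 0.187%). The median difference was -0.63, -0.73, -0.54, -0.78 and -1.45 over the weeks, beside -0.05, -0.03, 0.22, 0.16 and 0.12 for all genes, and over the weeks it was -0.47 without weeks 12 and 15 and -0.31 under normexp. The arrays are of bulk cells, so fewer cells of a type and less RNA per cell cannot be told apart. Apart from Pi16, Dpt and Dcn, the fibroblast genes named were chosen after their values were seen.

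Pdgfra, the receptor that defines adipocyte progenitors, was at 0.69, 2.77, 1.06, 1.24 and 1.84 with HFC and -0.02, 1.82, 0.53, 0.46 and 0.86 with HF20. Its difference lay between -0.98 and -0.53 in every week, while the levels of both diets peaked at week 6. Cd34, a surface glycoprotein of progenitor and endothelial cells, was at 5.30, 5.36, 5.28, 5.69 and 5.83 with HFC and 5.19, 5.17, 4.32, 4.80 and 4.38 with HF20, with 1 array of each diet saturated. Lum, a small proteoglycan that spaces collagen fibrils, was at 4.90, 4.45, 4.41, 5.30 and 5.15 with HFC and 4.27, 4.35, 3.75, 4.197 and 3.69 with HF20. In Cd34 and Lum the lowest HFC array lay above the highest HF20 array. Fap, a surface protease of activated fibroblasts, was at 0.04, 0.34, -0.12, 0.44 and 0.91 with HFC and -0.65, -1.47, -0.36, -0.26 and -0.37 with HF20, again without overlap, and Pdgfrb, the receptor of mural cells and fibroblasts, did not overlap either, though its mean difference of -0.43 ± 0.21 becomes 0.09 under normexp. Thy1, a surface protein of fibroblasts and T cells, was at 4.66, 4.72, 3.63, 4.41 and 5.004 with HFC and 3.98, 3.27, 3.09, 2.92 and 2.58 with HF20, and Fbn1, the main protein of microfibrils, differed by -1.12, -0.73, -1.03, -1.02 and -2.44. For Thy1 the gap was widest at week 15 and narrowest at week 9. Pi16, which marks the earliest progenitors, was at 3.39, 4.32, 3.18, 2.61 and 4.88 with HFC and 1.39, 3.24, 1.56, 3.01 and 1.68 with HF20, lower in 4 of 5 weeks and higher at week 12. Dpt, a matrix protein of the same cells, went the other way in weeks 6, 12 and 15, with differences of -0.90, 0.58, -1.18, 1.18 and 0.59 and a mean of 0.05 ± 0.41 that turns to -0.08, -0.23 and -0.08 without week 6, 12 or 15. Dcn, the brightest gene of the list, was saturated on all 10 arrays.

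All 16 collagen genes had a lower mean on HF20 (background 44.1%), with a median of -0.53 that becomes 0.01 under normexp, and 4 were lower in all 5 weeks (background 4.43%). Of the 20 genes of TGF-β signalling and fibrosis, 17 had a lower mean (background 44.1%) and 5 were lower in all 5 weeks (background 4.43%), with a median of -0.89, or -0.50 under normexp and -0.44 without weeks 12 and 15. Postn, a matrix protein made by activated fibroblasts, was at 3.01, 3.96, 3.71, 3.52 and 4.45 with HFC and 2.55, 2.77, 3.18, 2.67 and 2.96 with HF20, and Fn1, fibronectin, at 1.63, 3.14, 2.24, 1.53 and 2.76 with HFC and 0.96, 3.04, -0.07, 0.84 and 0.52 with HF20 (both chosen after their values were seen). In Postn only HF20 at week 9 reached the HFC range, and in Fn1 the week 6 arrays were nearly equal while weeks 9 and 15 were far apart. Inhba, which forms activin A, differed by -0.19, -0.69, -0.86, -3.98 and -3.79, and Acta2, the actin of smooth muscle and myofibroblasts, by 0.07, -1.08, -0.55, -2.52 and -2.97 with 4 HFC and 2 HF20 arrays saturated. Both differences were largest in weeks 12 and 15.

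Wnt signalling holds back adipocyte formation and has secreted inhibitors of its own. Of its 22 genes, 5 were lower (background 4.43%) and 1 higher (background 7.45%) on HF20 in all 5 weeks, with a median of -0.70, or -0.38 without week 15 and -0.09 without weeks 12 and 15. Sfrp2, a secreted Wnt modulator of fibroblasts (chosen after its values were seen), was at 1.61, 3.10, 1.63, 1.91 and 2.28 with HFC and 0.98, 2.04, 0.15, 0.91 and 0.34 with HF20, and only HF20 at week 6 reached the HFC range. Sfrp4, its relative, was at 1.44, 2.47, 1.98, 2.11 and 2.89 on the HFC arrays and at 1.54, 0.29, 0.26 and -0.78 on the HF20 arrays of weeks 6 to 15, and the fit drops HF20 at week 3, which has no value. Wnt10b, a Wnt ligand that blocks adipocyte formation (chosen after its values were seen), was at -5.35, -3.98, -4.64, -5.20 and -3.74 with HFC and -7.53, -5.57, -5.33, -5.87 and -7.24 with HF20, with 3 of 5 HF20 arrays well above background. Wif1, an inhibitor that binds Wnt ligands, was the one higher in all 5 weeks, at -5.94, -7.27, -5.76, -5.32 and -7.02 with HFC, where 2 of 5 arrays were well above background, and -4.07, -1.84, -4.89, -5.23 and -4.10 with HF20. Every HF20 level of Wif1 was above every HFC level.

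**Figure D2:**
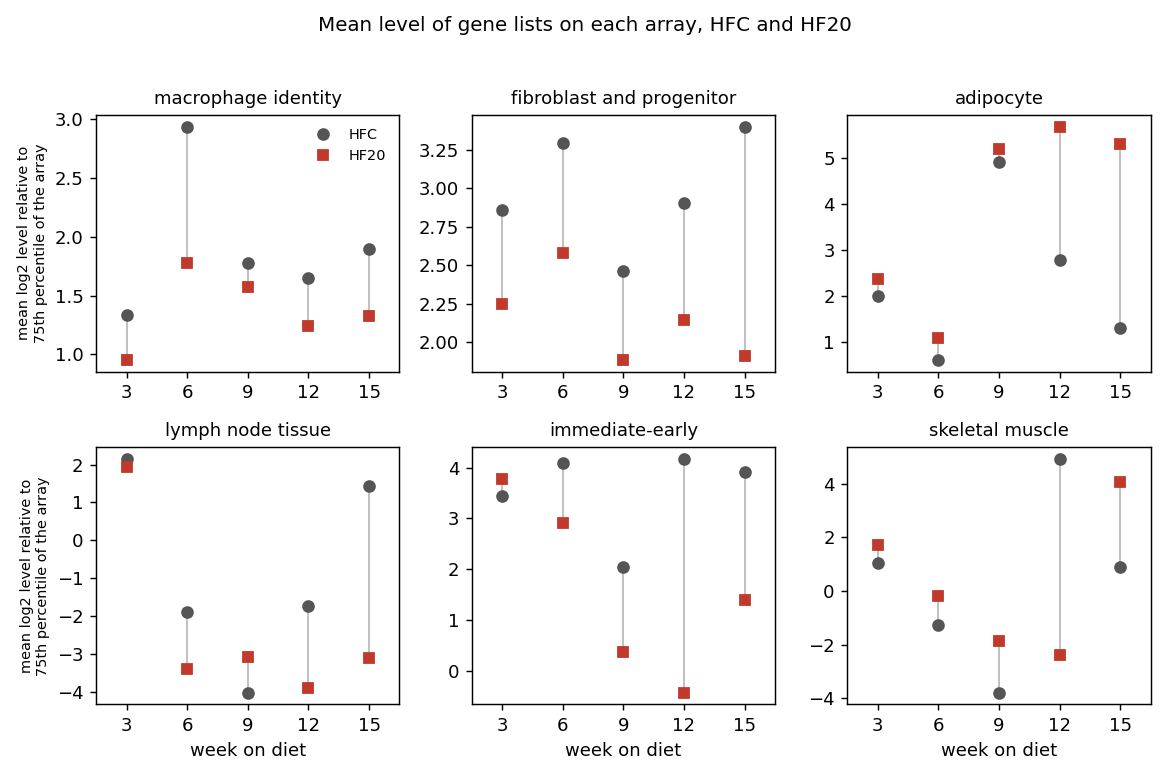
Mean log2 level of the genes of 6 lists relative to the array's 75th percentile (vertical axis) at weeks 3 to 15 (horizontal axis), with 1 point per array for HFC and HF20. The fibroblast list is lower on HF20 in each of the 5 weeks, and the adipocyte list is far higher on HF20 in weeks 12 and 15, at 5.67 and 5.30 against 2.79 and 1.32.

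Macrophage markers had a lower median on HF20 in each week as well, lowest at week 6. Of 14 macrophage genes 13 had a lower mean on HF20 (background 44.1%) and 4 were lower in all 5 weeks (background 4.43%), and the median was -0.51, or -0.01 under normexp, with weekly medians of -0.57, -1.43, -0.26, -0.25 and -0.37. Adgre1, a defining surface antigen of mouse macrophages, was at 1.68, 2.87, 2.73, 2.04 and 2.29 with HFC and 1.11, 2.51, 1.98, 1.81 and 2.26 with HF20. Levels of the mannose receptor gene Mrc1 were 1.096, 2.83, 2.46, 1.68 and 2.28 with HFC and 0.33, 1.90, 1.92, 1.39 and 2.13 with HF20. Both genes were lowest at week 3 in either diet, and at week 15 the diets were nearly equal. Cd68, a lysosomal protein of macrophages, was at -0.03, 2.31, 0.76, 0.32 and 0.86 with HFC and -0.47, 0.30, 0.76, -0.05 and -0.63 with HF20, and at week 9 its gap was close to 0. These 3 genes were chosen after their values were seen, and under normexp the mean difference of Adgre1 turns from -0.39 to 0.14.

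Cd14, a receptor for bacterial lipopolysaccharide, was at 1.82, 4.95, 0.87, 3.18 and 3.17 with HFC and 1.87, 2.63, 0.63, 0.54 and 0.82 with HF20, nearly equal at weeks 3 and 9 and far apart in the others. Cd163, the hemoglobin scavenger receptor, was higher on HF20 at weeks 6, 12 and 15 and lower at weeks 3 and 9, with differences of -0.69, 1.52, -0.94, 0.22 and 0.55 and a mean of 0.13 ± 0.40 that turns to -0.22 without week 6. Genes of lipid-associated macrophages, which clear lipid from dying adipocytes, had a median of -0.52, or 0.06 under normexp, -0.29 without week 6, -0.80 without week 9, -0.20 without weeks 12 and 15 and -1.06 without weeks 3 and 9. Among them Spp1, osteopontin, was at 2.21, 1.99, -1.09, 3.37 and 2.68 with HFC and 2.71, 2.06, -1.46, -0.84 and -0.84 with HF20, close at weeks 3 to 9 and far lower on HF20 at weeks 12 and 15, and Cd36, a fatty acid receptor that adipocytes also make, was higher on HF20 in every week but week 6, at 2.35, 2.26, 5.32, 3.93 and 3.86 with HFC and 3.80, 1.23, 5.42, 5.21 and 5.66 with HF20. At weeks 12 and 15 the adipocyte list was far higher on HF20 as well, and its part in Cd36 was not tested.

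Inflammatory genes split sharply by week. The 10 tested genes of the inflammatory list had weekly medians of 0.02, -2.06, 0.85, -4.38 and -3.77. Members went both ways at week 3, with 5 of 10 higher on HF20, and at week 9, with 6 of 10 higher. Of all 21943 genes tested, 9924 were higher on HF20 at week 3 and 15017 at week 9. The median was lower on HF20 at week 6 and far lower at weeks 12 and 15. Without weeks 12 and 15 the median over the weeks was -0.52 in place of -1.76, and it was -1.104 without week 12. Il6, the cytokine gene, was at 2.63, 2.77, -3.53, 4.997 and 4.48 with HFC and 4.17, 1.43, -6.03, -6.49 and -4.62 with HF20. It was brightest with HFC at weeks 12 and 15 and dim on HF20 from week 9 on, with HFC at week 9 also dim. Of the 11 genes of the alternatively activated list 2 were lower in all 5 weeks (background 4.43%), with a median of -0.77, or -0.22 under normexp. Retnla, a secreted protein of such macrophages, was lower on HF20 in every week but week 9, with differences of -0.81, -1.13, 0.17, -0.92 and -1.14 and 3 HFC and 2 HF20 arrays saturated. The cytokine gene Il10 was at -2.16, -0.01, -5.52, -0.69 and -1.61 with HFC and -3.13, -1.97, -5.09, -5.18 and -5.54 with HF20, lower on HF20 except at week 9.

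CC chemokines, which draw monocytes and T cells, had weekly medians of -0.44, -2.31, 0.02, -2.36 and -3.10, and 3 of 12 were lower in all 5 weeks (background 4.43%). Ccl2, the main monocyte attractant (chosen after its values were seen), was at 3.47, 6.23, 2.41, 5.63 and 5.81 with HFC and 3.32, 3.65, 1.21, -0.94 and 0.26 with HF20. It was nearly equal at week 3, and at weeks 12 and 15 the HF20 arrays were lowest of all. Ccl4 was at 3.60, 5.46, -2.98, 5.15 and 4.30 with HFC and 2.99, 2.81, -2.11, -4.02 and -2.46 with HF20, low with HFC at week 9 only and with HF20 from week 9 on, and Ccl6 differed by -0.49, -1.99, -0.16, -0.30 and -0.37, mostly through week 6. CXC chemokines, most of which draw neutrophils or T cells, all had a lower mean (background 44.1%), with a median of -1.32, or -2.06 without week 9 and -0.29 without weeks 12 and 15, and weekly medians of -0.09, -1.35, 0.39, -3.27 and -3.01. Of these genes Cxcl1, a neutrophil attractant, was at 2.56, 4.000, 0.03, 4.69 and 4.59 with HFC and 2.71, 2.42, -2.10, -4.83 and -0.94 with HF20. For Cxcl1 the diets were nearly equal at week 3 and furthest apart at week 12.

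Complement genes, made in fat by stromal cells and macrophages, had a median of -0.49, and 4 of 14 were lower in all 5 weeks (background 4.43%). The median was -0.48 without weeks 12 and 15, -0.26 without week 6 and -0.07 under normexp. Serping1, the inhibitor of the first complement proteases, was at 3.79, 5.30, 3.54, 4.16 and 4.72 with HFC and 3.16, 3.95, 3.32, 2.95 and 2.74 with HF20. Serping1 showed its smallest gap at week 9 and its largest at week 15. In weeks 3, 6 and 9 alone (chosen after their values were seen), 9 of 14 complement, 8 of 13 fibroblast and 8 of 14 macrophage genes were lower on HF20 each week. So were 6 of 20 fibrosis genes and 5 of 16 collagen genes, whose median over 5 weeks turns to 0.01 under normexp. The background was 9.10% of all genes. The adipocyte medians of these weeks were 0.53, 0.32 and 0.19, and the part of adipocyte RNA in these counts was not tested. Other lists were over 9.10% too, among them mast cell (5 of 8), plasma cell (3 of 7), alternatively activated (3 of 11) and heat shock (4 of 15) genes. So were CC chemokine (3 of 12), neutrophil (3 of 12), unfolded protein (5 of 20), Wnt (5 of 22) and lysosome (4 of 18) genes. Lists near that share or under it included lipid-associated macrophage (1 of 11), inflammatory (1 of 10) and CXC chemokine (1 of 10) genes. Immediate-early (2 of 20), T cell (0 of 11) and endothelial (0 of 12) genes were among these as well.

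Adipocyte and lipid genes were higher on HF20, by far the most at weeks 12 and 15. The adipocyte median was 1.62 over the 5 weeks, with weekly medians of 0.53, 0.32, 0.19, 2.72 and 4.06, or 1.02 without week 15 and 0.27 without weeks 12 and 15. Plin1, the coat protein of the adipocyte's lipid droplet (chosen after its values were seen), was at 0.13, -2.05, 5.28, 1.02 and -0.72 with HFC and 0.69, -0.87, 5.49, 5.94 and 5.78 with HF20, with 1 HFC and 3 HF20 arrays saturated. The hormone gene Lep, leptin, was at -2.91, -5.47, 2.72, -1.88 and -3.78 with HFC and -3.03, -2.24, 3.67, 3.89 and 2.41 with HF20. In Lep the week 3 arrays were alike. Adrb3, the β3-adrenergic receptor that starts lipolysis, was at -0.41, -2.96, 5.31, -0.12 and -2.02 with HFC and -0.41, -1.25, 5.51, 6.004 and 5.79 with HF20, with 1 HFC and 3 HF20 arrays saturated.

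All 17 lipogenesis genes and all 15 lipolysis and lipid droplet genes had a higher mean on HF20 (background 55.9%), with medians of 1.70 and 1.25, and 4 and 4 were higher in all 5 weeks (background 7.45%). Without weeks 12 and 15 the medians were 0.30 and 0.19, and that of lipogenesis was 1.11 without week 12 and that of lipolysis 0.71 without week 15. Mlxipl, the carbohydrate-sensing factor ChREBP, was at -3.40, -0.79, 2.77, -1.87 and -4.11 with HFC and -3.50, 0.28, 3.003, 4.55 and 2.77 with HF20. It was high at week 9 in both diets and at weeks 12 and 15 with HF20 alone. Fasn, fatty acid synthase, differed by -0.20, 0.97, 0.14, 1.67 and 2.11 with 1 HFC and 4 HF20 arrays saturated, and Acacb, the acetyl-CoA carboxylase at the mitochondrion (chosen after its values were seen), by 0.69, 0.33, 2.84, 3.14 and 2.46 with 2 HFC and 4 HF20 arrays well above background and a mean of 1.89 that becomes -0.05 under normexp.

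Fatty acid oxidation and respiratory chain genes had medians of 0.97 and 0.68, and 5 of 17 and 6 of 24 were higher in all 5 weeks (background 7.45%). Without weeks 12 and 15 the medians were 0.14 and 0.13, and that of fatty acid oxidation was 0.57 without week 15. Under normexp the medians of these 2 lists were 1.41 and 1.16. Ehhadh, a peroxisomal enzyme of fatty acid oxidation, was at -3.10, -2.94, 1.01, -3.29 and -3.38 with HFC and -2.90, -0.16, 0.27, 1.39 and 1.15 with HF20, and Sdha, the catalytic subunit of complex II, at 0.29, 0.80, 2.59, 0.73 and 0.63 with HFC and 0.61, 0.86, 2.82, 3.04 and 3.06 with HF20. Both were high in HFC at week 9 only and on HF20 at weeks 9, 12 and 15, Ehhadh on HF20 from week 6. Of 16 insulin signalling and glucose uptake genes 5 were higher (background 7.45%) and 1 lower (background 4.43%) in all 5 weeks. Their median was 0.42, or 0.28 without week 12, 0.09 without weeks 12 and 15 and 0.70 under normexp. Slc2a4, the insulin-driven glucose transporter GLUT4, was at 1.61, 1.60, 4.75, 2.86 and 1.503 with HFC and 2.36, 2.36, 5.20, 5.84 and 5.23 with HF20. Insr, the insulin receptor (chosen after its values were seen), was at -2.47, -1.69, -0.66, -1.45 and -1.22 with HFC and -1.56, -1.04, -0.54, -0.51 and 0.04 with HF20, higher on HF20 in each week and least so at week 9. Irs2, an adaptor of that receptor, was lower on HF20 in all 5 weeks, by -0.20, -2.12, -0.04, -2.91 and -0.74. The part of the adipocyte list's own difference in these groups was not tested.

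T cell and lymph node genes had lower medians on HF20 except at week 9, when 15017 of the 21943 genes tested were higher on HF20. In that week 87.2% of the probes were well above background on HF20 and 71.3% on HFC. The 11 T cell genes had weekly medians of -0.25, -2.64, 0.87, -2.53 and -3.80 and the 10 lymph node genes -0.20, -1.33, 0.86, -2.35 and -4.11, and without weeks 12 and 15 the medians over weeks were -0.73 and -0.47 in place of -1.68 and -1.56, and -1.12 and -0.71 without week 15. Cd3d, a chain of the T cell receptor complex, was at 2.91, 1.44, -2.03, 0.09 and 2.90 with HFC and 2.66, -2.01, -1.16, -3.03 and -0.83 with HF20. Ccr7, the receptor that guides T cells to lymph nodes, was at 3.95, 0.15, -4.198, 0.18 and 2.85 with HFC and 3.37, -2.89, -3.45, -5.44 and -3.29 with HF20, and its ligand gene Ccl19 at 3.26, 4.18, 0.39, 2.51 and 3.81 with HFC and 3.53, 2.83, 0.11, -0.03 and 0.20 with HF20. Week 3 was high in both diets for Cd3d and Ccr7, HFC came near that again at week 15, and HF20 did not. Cd4, the helper T cell co-receptor, differed by -0.20, -0.33, 1.94, 2.37 and 0.86, a mean of 0.93 ± 0.47 that turns to -0.37 under normexp. Lymph node RNA moved with the T cell genes, and its part in them was not tested.

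Endothelial genes, the vessel lining, had weekly medians of 1.03, -0.996, -0.35, -1.62 and -1.06, higher on HF20 at week 3 and lower after it. Over the weeks the endothelial median was -0.60, or -0.11 under normexp. It was -1.01 without week 3, -0.33 without week 12 and -0.07 without weeks 12 and 15. Vwf, the von Willebrand factor that endothelial cells store, was at 5.18, 6.14, 3.14, 5.31 and 5.54 with HFC and 5.19, 4.22, 2.55, 3.05 and 2.65 with HF20. The diets were equal at week 3 and furthest apart at week 15.

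Immediate-early genes, which cells switch on within minutes of a stimulus or of handling, had weekly medians of 0.22, -1.19, -1.31, -4.63 and -2.46, and a median of -1.94 over the weeks, or -1.22 without week 12 and -0.87 without weeks 12 and 15. Fos, a subunit of the AP-1 factor, was at 4.97, 5.95, 2.13, 5.02 and 5.50 with HFC and 5.10, 4.53, -1.43, -4.85 and 2.99 with HF20, alike at week 3 and lowest on HF20 at week 12. Dusp1, a phosphatase that shuts off MAP kinases (chosen after its values were seen), was at 4.52, 5.73, 3.59, 4.85 and 4.94 with HFC and 4.30, 4.44, 1.85, 0.45 and 2.84 with HF20, lower on HF20 in each of the 5 weeks. Heat shock genes had a median of -0.31 that becomes 0.13 under normexp, and 3 of 15 were lower in all 5 weeks (background 4.43%). The heat shock median was -0.65 without weeks 3 and 9 and -0.18 without weeks 12 and 15. Hspa1a, the inducible Hsp70, was at 6.09, 6.01, 4.44, 6.41 and 5.80 with HFC and 5.74, 5.09, -0.34, -0.42 and -0.52 with HF20, with 2 HFC arrays and 1 HF20 array saturated. Its HF20 level was near that of HFC at weeks 3 and 6 and far under it from week 9 on. Hspa8, the constitutive Hsp70, differed by -0.42, -0.999, -0.10, -0.86 and -0.81, and Hspd1, a mitochondrial chaperone, by -0.30, 0.36, -0.19, 1.41 and 1.76, higher on HF20 at weeks 6, 12 and 15. The immediate-early genes moved in the same weeks as Il6, Ccl2 and Cxcl1, and their part in those differences was not tested.

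Skeletal muscle genes differed by 0.59, 1.12, 1.54, -7.59 and 3.32 in the weekly medians. Myh4, a fast myosin, was at 2.29, 0.82, -7.76, 5.81 and 1.74 with HFC and 3.50, 1.16, -0.35, -1.48 and 5.75 with HF20, and Mb, myoglobin, at -0.52, -3.34, -7.76, 4.48 and 0.49 with HFC and 0.36, -1.21, -6.32, -5.28 and 2.02 with HF20. Muscle RNA was thus higher on HF20 in 4 weeks and far lower at week 12, and the median of -0.11 is 1.51 without week 12. In weeks 3, 6 and 9 (chosen after their values were seen), 11 of 14 muscle genes were higher on HF20 each week, with a background of 14.3%.

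Clock genes had a median of 0.14, or 0.0029 without week 9, 0.23 without week 12 and -0.16 without weeks 3 and 9, with 2 of 18 higher (background 7.45%) and 2 lower (background 4.43%) in all 5 weeks. Per3, a period gene, was at -6.45, -5.14, -5.04, -5.21 and -6.34 with HFC and -6.03, -3.84, -3.42, -3.37 and -4.36 with HF20, higher on HF20 in each week and not well above background with HFC at week 3, and its mean of 1.43 ± 0.29 turns to -0.10 under normexp. Dbp, an output factor of the clock, was at 3.16, 4.93, 2.76, 5.16 and 4.16 with HFC and 3.42, 4.21, 5.53, 5.91 and 5.40 with HF20, and Nfil3, its repressor counterpart, at 2.01, 2.05, 1.40, 2.64 and 2.06 with HFC and 2.10, 1.09, -0.68, -0.13 and -0.80 with HF20. Dbp was higher on HF20 in every week but week 6, and Nfil3 was lower in every week but week 3.

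**Figure D3:**
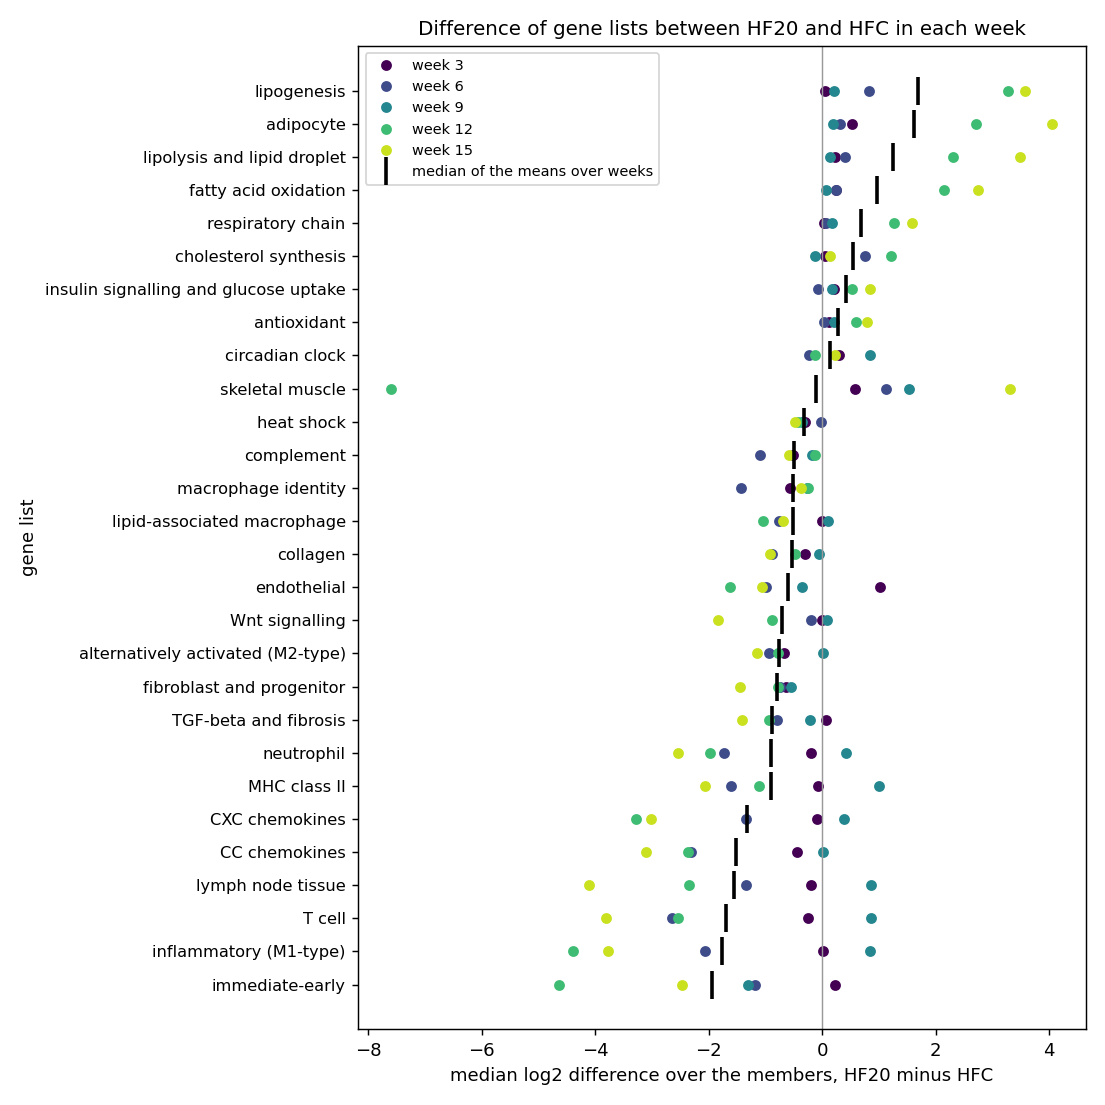
Median log2 difference, HF20 less HFC, over the genes of 28 lists (vertical axis), with 1 point per week along the horizontal axis. The fibroblast points lie from -1.45 to -0.54, and those of the adipocyte list reach 4.06 at week 15. Under normexp, relative to the median of all genes, the collagen, heat shock and lipid-associated macrophage medians over the weeks turn from negative to 0.01, 0.13 and 0.06. Those of the macrophage, complement, endothelial, alternatively activated and fibroblast lists shrink to -0.01, -0.07, -0.11, -0.22 and -0.31.

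Beside the other doses of Kal-1, HF20 had fibroblast medians whose sign depended on the weeks kept, and Slpi was lower in every week. Against HF5, 0 of 30655 probes (0%) had a limma adjusted p under 0.05, with 1744 at an unadjusted p under 0.05, and the methods' t-test gave 0 and 452. The fibroblast median was -0.79 against HFC, 0.03 against HF5 and 0.02 against HF75 (these differences share the HF20 arrays). The HF5 array of week 3 had 57.3% of its spots well above background, fewer than the other arrays of these 4 diets. Without week 3 the median against HF5 turns to -0.50, and without week 15 it is 0.47. The one against HF75 turns to -0.12, -0.33 and -0.15 without week 3, 6 or 9, and is 0.27 without week 15 (chosen after seeing the data). Single weeks went opposite ways, with mean levels of the list at 2.25, 2.58, 1.88, 2.14 and 1.91 on HF20, 0.69, 2.53, 2.15, 2.58 and 3.26 on HF5 and 1.67, 2.23, 2.15, 2.17 and 2.31 on HF75. Pdgfra was at -2.06, 1.81, 0.38, 0.43 and 2.44 on the HF5 arrays and -0.93, 2.28, -0.34, 0.37 and 0.86 on the HF75 arrays, and Gfpt2 at -2.46, -0.12, -0.98, -1.61 and 0.97 on the HF5 arrays and -3.41, -1.64, -0.98, -1.35 and -1.30 on the HF75 arrays. In both genes the HF20 levels lay within the range of the HF5 and HF75 levels.

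Of the 9 genes at least 2-fold lower than HFC in all 5 weeks, which the same HF20 arrays chose, 3 were also lower than HF5 in all 5 weeks, 6 lower than HF75 and 2 lower than both. Over all genes, which were not chosen in this way, the shares lower in all 5 weeks are 3.49% for HF5 and 10.7% for HF75, and those higher 4.33% and 10.2%. Of the 4 genes at least 2-fold higher, 1 was also higher than HF5, 2 higher than HF75 and 0 higher than both. Slpi was lower on HF20 than on either, at 5.32, 3.93, -0.40, 4.92 and 3.81 with HF5 and 6.92, 3.49, 5.17, 6.76 and 3.56 with HF75. Erdr1 was at 6.69, 5.65, 3.76, 6.44 and 5.78 with HF5 and 5.60, 6.19, 6.55, 6.49 and 5.73 with HF75, so that only HF5 at week 9 came down to the HF20 levels, and Ren1 at -0.74, 0.47, -7.48, 0.02 and -1.06 with HF5 and -0.38, -0.04, -0.98, -3.09 and -2.42 with HF75. Adipocyte genes had medians of 1.91 against HF5 (1.05 without week 15) and 1.18 against HF75 (0.64 without week 12). Their mean level was 2.36, 1.09, 5.18, 5.67 and 5.30 on HF20, 1.09, 1.64, 5.10, 1.94 and 0.71 on HF5 and 2.38, 1.78, 3.23, 2.06 and 2.89 on HF75, so HF20 was far higher than both at weeks 12 and 15, lower than both at week 6, and close to HF75 at week 3 and to HF5 at week 9.

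Against HF75, 104 of 30893 probes (0.337%) passed in limma, 3 higher and 101 lower on HF20, and the methods' t-test gave 0 after adjustment and 6469 unadjusted. Lancl1, which binds glutathione, was at 0.68, -1.19, -0.53, -0.65 and -1.17 on HF20 and at 4.38, 2.20, 2.67, 3.78 and 2.43 on HF75, and fell by 3.66 ± 0.29 (adjusted p = 0.0379). Every HF75 array was far above every HF20 array. Igkv3-12 passed too, with a difference of -4.76 (adjusted p = 0.0428), and Fosl2, an AP-1 subunit, at -4.52 ± 0.46 (adjusted p = 0.0379). The 3 higher were Akap1, an anchor of protein kinase A at mitochondria, at 2.23 ± 0.29, Epb41l5 at 2.597 ± 0.35 and Palm at 1.76 ± 0.24. On HFC arrays the median level of the 101 probes was -0.92, -4.33, -4.79, 0.67 and -1.88, on HF20 -0.20, -4.18, -3.35, -4.38 and -3.08, on HF5 -1.20, -4.14, -4.55, 2.55 and -0.04, and on HF75 3.30, 0.38, 1.76, 2.91 and 1.69. On the normal diet arrays the median level of these probes was 4.63, -3.16, -4.70, -4.60 and 1.78. The normal diet array of week 3 had only 16.8% of its spots well above background. The 75th percentile was 521, 585, 441, 443 and 733 intensity units on the HF75 arrays and 748, 1793, 1441, 1026 and 1126 on the HF20 arrays. The part of array brightness in these differences was not tested. The 101 probes were chosen for their HF75 and HF20 levels. In week 9 the HF20 title holds the tag WS and the HF75 title does not. The count is 0 without week 6, 9, 12 or 15, 284 without week 3 (89 higher and 195 lower), 3 under quantile normalization (all lower), 0 in the pairs scanned on the same day, and 2948 with all 20 arrays in 1 fit (1569 higher and 1379 lower).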

How the data were processed

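The deposited intensities are the processed signals of 1-colour Agilent arrays, which per the file headers come from Feature Extraction 10.5.1.1 (9.1 in the submitters' processing notes) with background subtracted and no normalization between arrays. A table of the authors' log2 fold changes against the low-fat diet was not used.

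Reading and tables used Python 3.11.15 with NumPy 2.4.6 and pandas 2.3.3, figures matplotlib 3.10.9, and the test limma 3.58.1 in R 4.3.3. The log2 intensities were shifted by the array's 75th percentile over spots that were neither controls nor outliers. Control and outlier spots were dropped, the spots of a probe were averaged (43803 spots for 40628 probes), and a probe counted as well above background if 50% or more of its spots did. Dimmer values were set to the array's lowest value that passed this mark. The test took probes that passed it on 50% or more of one diet's arrays and used lmFit and eBayes with week as a block, two-sided, at a Benjamini-Hochberg adjusted p under 0.05. A gene is its tested probe with the highest mean level over the 10 arrays. Fold changes are 2 to the power of the mean difference. The steps were tested on simulated data.

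Probes were named through the RefSeq table of GRCm38.p6, which also gives the positions: 28128 by accession, 4988 by symbol and 1406 by an older symbol, while 6106 kept the file's name. Genes at least 2-fold different had to be well above background on 1 or more arrays of every pair.

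Week pairs come from the labels. Deviations from the diet means correlated between the HFC and HF20 arrays of a week by 0.56, 0.61, 0.35, -0.22 and -0.19 over genes, which do not stand for replicates.

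The genes named are up to 15 per direction past the threshold or, where fewer passed, those of smallest unadjusted p among genes with 1 sign in all 5 weeks that were well above background on all 10 arrays, the genes at least 2-fold different in all 5 weeks, and in each list described the brightest member and those with the largest difference in each direction. The members and the 53 lists were chosen with earlier results of these data known. No list was tested. A withheld gene is not reported here.

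The HFC and HF20 arrays were scanned on the same day in 4 of 5 weeks, not in week 3, and no HFC and HF20 pair shared a slide, so slide and diet cannot be told apart within a week. HF5 and HF20 shared the scan day in 4 weeks and a slide in 1, and HF75 and HF20 the scan day in 3. The alternatives were normexp with an offset of 50 on the mean and background signals, quantile normalization, no filter on dim probes, probes well above background on all 10 arrays, both arrays of every pair above background, no raising of dim values, no block, all 20 arrays in 1 fit, array weights, the methods' t-test, an adjusted p under 0.1, a 1.5-fold threshold, another choice of a gene's probe, and leaving out each week.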

Additional observations from a re-analysis of the deposited data

Results flagged for a closer look

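In each diet's 5 arrays, and among the 5 weekly differences, every value named in the report and each list's level or median was checked for 1 array or week lying far from the others, by the gap to its neighbour as a share of the whole range. Of 370 groups of 5 values, 31 had such a value, where chance gives about 1 in 20 groups.

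Many of them are the HFC array of week 9. Its list levels were -3.61 for the inflammatory genes, under the other HFC arrays at -0.53 to 0.47, and 2.58 for lipogenesis and 2.52 for fatty acid oxidation, over the others. On the same array Il6 was at -3.53, Ccl4 at -2.98 and Fos at 2.13, under the other HFC arrays, while Ehhadh at 1.01, Sdha at 2.59, Cstdc2 at -3.25 and Grhl1 at -1.32 were over them. Other HFC arrays stood apart through the heat shock list at 3.96 in week 12 and through Tspan1 at -4.56 and Shd at -2.82 in week 6.

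Among the HF20 arrays, week 6 stood apart with the lipid-associated macrophage list low at 1.62, Ren1 high at -0.40, Pamr1 high at 0.94, Thbs3 high at 2.52 and Tbc1d2 low at 0.84. Week 3 had the lymph node list high at 1.95, Klrc2 high at -1.68, Ccr7 high at 3.37 and Gsta4 low at -3.03. Week 9 had Hmox1 low at -1.56.

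Among the weekly differences, the macrophage list was lowest at week 6 with -1.43, the fibroblast list at week 15 with -1.45 and the skeletal muscle list at week 12 with -7.59. Of single genes, Mb stood apart at week 12 with -9.76, Fbn1 at week 15 with -2.44, Ccl6 at week 6 with -1.99, Lrrc3 at week 3 with 0.50 and Retnla at week 9 with 0.17.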

How the results depend on the processing

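The count of 0 probes past the threshold for HF20 against HFC, and for HF20 against HF5, was the same under all alternatives run, with smallest adjusted p between 0.132 and 0.98 for HFC. For HF20 against HF75 the 104 probes became 176 under normexp, 3 under quantile normalization, 59 with no block for the paired weeks, 2948 with all 20 arrays in 1 fit, 300 with array weights, 0 by the methods' t-test and 509 at an adjusted p under 0.1, and 0 to 284 when each week was left out. In alternatives chosen after seeing the data it was 0 without weeks 12 and 15, 0 without weeks 3 and 9 and 0 in the pairs scanned on the same day. Dropping the block changed no other call. The 13 genes at least 2-fold different became 6 under normexp, 6 with both arrays of every pair well above background and 86 at 1.5-fold, and 19 to 223 when each week was left out. The causes were not tested, apart from the weaker demand of 1.5-fold or of 4 weeks, which admits more genes.

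Of 92 gene differences 77 kept their direction under every alternative run, as did 23 of 28 list medians. Under normexp, relative to its median of all genes, the sign turned for Tspan1 (-0.262), Styxl1 (-0.314), Mc4r (-0.121), Cd4 (-0.374), Per3 (-0.099), Pdgfrb (0.0888), Adgre1 (0.145), Acacb (-0.0453) and the lipid-associated macrophage (0.0575), collagen (0.0138) and heat shock (0.127) lists. The medians of the macrophage, complement, endothelial, alternatively activated and fibroblast lists shrank to -0.0103, -0.0744, -0.114, -0.217 and -0.306. With 1 week left out, the values ran from -0.22 to 0.399 for Cd163, -0.229 to 0.360 for Dpt, -0.43 to 3.24 for Myh4, -1.48 to 1.496 for Mb and -0.97 to 1.51 for the skeletal muscle list, and Dpt was at -0.0791, -0.229 and -0.0833 without week 6, 12 or 15. Without weeks 12 and 15 the sign turned for Cd163 (-0.0372), Spp1 (0.0649), Dpt (-0.503), Hspd1 (-0.0410), Mb (1.48), H2-Ob (0.0273) and the muscle list (0.943), and without weeks 3 and 9 for Myh4 (-0.982) and the clock list (-0.156). The causes were not tested.

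There is 1 array per diet and week, so no week has a replicate, and the spread between weeks is part of every error given. Dim genes limit precision as well: 65.7% to 86.5% of spots were well above background, and Klrc3 and Cstdc2 were well above background on 1 of 5 arrays of 1 diet. Saturated probes understate differences. Week 3 pairs were scanned on different days.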

Other observations

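Antigen presentation genes followed the lymphocyte genes. The 9 MHC class II genes all had a lower mean on HF20 (background 44.1%), with a median of -0.91 (-1.38 without week 9, -0.56 without week 15 and -0.41 without weeks 12 and 15) and weekly medians of -0.07, -1.60, 1.01, -1.11 and -2.07, beside 0.08 for all genes. H2-Ob, a B cell chaperone of peptide loading, was at -0.07, -3.72, -6.82, -1.84 and -0.66 on the HFC arrays and 0.47, -6.17, -4.82, -7.85 and -5.79 on the HF20 arrays, with 4 of 5 HFC and 3 of 5 HF20 arrays well above background. It was high for both diets at week 3 only, and the mean of -2.21 ± 1.23 becomes 0.03 without weeks 12 and 15. Neutrophil genes had a median of -0.90, or -0.41 without week 15, -1.65 without week 9 and -0.32 without weeks 12 and 15, with 2 of 12 lower in all 5 weeks (background 4.43%). S100a9, a calcium-binding protein that neutrophils hold in bulk, was at 5.07, 3.92, 1.46, 4.78 and 5.77 with HFC and 4.93, 1.57, 1.53, 0.85 and 3.26 with HF20. The diets were alike at weeks 3 and 9 for S100a9, and HF20 was lower in the other weeks.

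Cholesterol synthesis genes had a median of 0.55, or 0.31 without week 12, with weekly medians of 0.05, 0.76, -0.12, 1.21 and 0.14. Insig1, which holds back that pathway when sterols are plentiful, was at -2.52, -2.20, -0.60, -2.65 and -3.06 with HFC and -2.46, -2.37, -0.34, 1.31 and -0.48 with HF20, close at weeks 3, 6 and 9 and higher on HF20 at weeks 12 and 15. Antioxidant genes had a median of 0.28, or 0.08 without weeks 12 and 15 and 0.55 under normexp, and 3 of 19 were higher in all 5 weeks (background 7.45%). Gsta4, a glutathione transferase that clears lipid peroxidation products, was at -2.84, -1.23, 0.15, -1.55 and -2.19 with HFC and -3.03, 0.77, 0.74, 1.73 and 1.33 with HF20, and Hmox1, the heme-degrading enzyme, differed by 0.09, 1.71, -2.73, -1.07 and -1.53. Gsta4 was higher on HF20 in every week but week 3, and Hmox1 was higher at week 6 and lower from week 9 on.

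Of the 53 lists, 40 had a negative and 13 a positive median, and those of the 25 lists not described lay between -1.62 for cytotoxic lymphocyte genes and 0.58 for adipogenic factors.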
